A study of Homo sapiens with 45 samples.

Results

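The genes described here are 10 factors that fold chromosomes into loops: CTCF, the cohesin genes RAD21, SMC1A, SMC3, STAG1 and STAG2, the cohesin regulators NIPBL, WAPL and PDS5A, and YY1. They were chosen by name, with earlier results of these data known. They were looked up by Ensembl identifier among the 60624 genes of each of 4 deposited count tables. All 10 were found and passed the filter on low counts in each table. Their RNA was measured in 45 libraries labelled T47D, a human breast cancer cell line of luminal type that carries the oestrogen receptor, in 15 groups of 3. The shRNA table compared normoxia with hypoxia in cells with the control hairpin shCtrl, and added hypoxic cells whose hairpin, labelled shZHX2, targets ZHX2. All other groups were hypoxic. The hexanediol table held control cells, labelled Ctrl, and cells given 0.5% or 1% 1,6-hexanediol, an alcohol that dissolves many phase-separated condensates, for 24 h. The rescue table had 5 groups: vector in shCtrl cells, and, in shZHX2 cells, vector or a construct labelled WT, PA or SA, taken here as ZHX2 forms from their labels and the ZHX2 level, whose sequences the labels do not spell out. The sgRNA table held cells labelled sgCtrl, sgZHX2, teton_control and teton_sgZHX2. ZHX2, a transcription factor with zinc fingers and homeodomains, is the gene under study, and the study asked which hypoxia-induced genes it sustains and what the loss of phase separation does to them. The sources used here do not give the oxygen level, the length of the hypoxia, the number of hairpins or clones, or the inducer of the teton cells. Whether replicates came from separate cultures is not labelled, so a p-value measures only the spread between these libraries, which may be technical.

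Cohesin is a ring of 2 SMC proteins closed by a kleisin. It is loaded on DNA, reels in a loop, and halts where CTCF sits on its motif in the convergent direction, which leaves the loop anchored there. The same ring holds sister chromatids together until mitosis. YY1 binds enhancers and promoters and is thought to bring them together. In breast epithelium these loops frame the contacts between oestrogen-responsive enhancers and their genes, and STAG2 is among the cohesin genes most often mutated in cancer.

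The labelled cell type was checked on its markers. All 9 luminal markers were present in every library, with a summed level of 3605 to 59226 CPM, the usual unit of counts scaled to a common library total, while the basal markers KRT5, KRT14 and TP63 summed to at most 4.92 CPM, the leukocyte markers to at most 2.57 CPM and the endothelial markers to at most 3.42 CPM. The fibroblast list reached 12.98 to 72.3 CPM, most of it COL1A1, while COL3A1 and PDGFRB stayed at or under 4.24 and 1.76 CPM. Among the luminal markers the keratins KRT8, KRT19 and KRT18 reached 35453, 17513 and 7773 CPM, while each of the others stayed at or under 910 CPM. ESR1 ranged from 13.7 to 175 CPM. The luminal sum therefore follows mostly the keratins and does not describe each marker. The luminal and fibroblast sums differed between groups and are given beside the results they moved with. The ZHX2 transcript was lower with shZHX2 in the shRNA table (log2 fold change -1.86) and in the rescue table (-2.22), and all 3 rescue forms took it above the shCtrl level of 31.99 ± 1.99 CPM (72.3, 53.95 and 80.5 CPM with WT, PA and SA). ZHX2 was itself higher at 0.5% and 1% hexanediol (0.60 and 0.56, adjusted p = 0.000956 and 0.000751 in edgeR's test). It was called slightly higher with sgZHX2 (0.13, adjusted p = 0.0044) and was not called with teton_sgZHX2 (0.05). With the offset for GC content and exon length described below, ZHX2 was called in neither (-0.02 and -0.03, adjusted p = 0.764 and 0.467 in edgeR's test). RNA levels cannot tell whether the guides cut. The libraries held between 14111216 and 27217814 counts. In the hexanediol table replicate 2 of the 0.5% group stood apart from its partners (chi-square per degree of freedom 29.5 and 27.3, against 3.48 between the other 2), as did replicate 2 of the 1% group (9.77 and 9.90, against 2.04), while all other pairs of replicates were at 4.20 or below. The mitochondrial share of counts differed between groups and is given beside the results it moved with.

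The members' promoters were searched for 4 short motifs, because the comparisons below include hypoxia and because 2 of the members bind DNA at known motifs. The 250 bases before the RefSeq start (GRCh38.p14) were available for 9 of the 10 genes in 12 windows. SMC1A and STAG2 had several windows. A member was counted when any of its windows held a match, whereas the shares over all windows count single windows. The cores of the hypoxia response element, ACGTG and GCGTG, were held on either strand by 18.5% and 32.2% of all 35116 windows of this length, and by 1 (STAG1) and 4 (CTCF, PDS5A, SMC1A and STAG1) of the 9 members. A YY1 motif, AANATGGC, was held by 3.86% of windows and by 1 member, SMC3. The core of the CTCF motif was held by 2.02% of windows and by 1 member, STAG1. ACGTG and GCGTG share their last 4 letters but cannot match at the same position of a strand. A match describes the letters and not a bound site. The windows are printed on the gene's own strand, 5′ to 3′, with every match to these motifs on either strand in capitals. SMC3 and STAG1 are shown because they hold the YY1 and CTCF motifs, SMC1A because it stood apart from SMC3 in the results below, and NIPBL as a window with none of the 4 motifs whose transcript had the second steepest fall in hypoxia after that of SMC3.
SMC3, chr10:110567445-110567694, plus strand: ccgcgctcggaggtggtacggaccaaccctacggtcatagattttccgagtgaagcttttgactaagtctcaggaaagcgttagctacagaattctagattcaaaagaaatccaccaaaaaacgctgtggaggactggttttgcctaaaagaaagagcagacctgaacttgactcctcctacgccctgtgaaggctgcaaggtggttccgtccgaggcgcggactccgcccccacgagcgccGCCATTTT
STAG1, chr3:136752379-136752628, minus strand: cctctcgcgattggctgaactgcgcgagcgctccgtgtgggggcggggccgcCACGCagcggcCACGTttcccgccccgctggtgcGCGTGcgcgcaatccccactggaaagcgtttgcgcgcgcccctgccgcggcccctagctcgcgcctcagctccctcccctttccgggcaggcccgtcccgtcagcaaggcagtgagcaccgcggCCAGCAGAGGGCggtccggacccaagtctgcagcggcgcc
SMC1A, chrX:53422729-53422978, minus strand: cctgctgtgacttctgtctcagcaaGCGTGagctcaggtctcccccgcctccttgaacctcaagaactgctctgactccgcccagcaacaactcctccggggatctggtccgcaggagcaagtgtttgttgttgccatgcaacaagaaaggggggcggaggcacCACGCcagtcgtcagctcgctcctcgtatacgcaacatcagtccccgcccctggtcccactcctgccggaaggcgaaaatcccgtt
NIPBL, chr5:36876519-36876768, plus strand: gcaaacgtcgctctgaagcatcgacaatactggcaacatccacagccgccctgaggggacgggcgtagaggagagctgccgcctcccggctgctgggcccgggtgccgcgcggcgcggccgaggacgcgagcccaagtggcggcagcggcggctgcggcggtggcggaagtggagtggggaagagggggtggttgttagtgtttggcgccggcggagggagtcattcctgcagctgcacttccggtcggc
The upstream windows of the members held 70% GC at the median against 58% over all windows, whereas their transcripts were poor in GC, as described below.

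The members are described by their place in the cycle of loop formation. The ring is built from SMC1A (ENSG00000072501, chromosome X, 53374149 to 53422728) and SMC3 (ENSG00000108055, chromosome 10, 110567691 to 110604636), the 2 long ATPase arms, and RAD21 (ENSG00000164754, chromosome 8, 116845935 to 116874866), the kleisin that closes them and is cut at anaphase. STAG1 (ENSG00000118007, chromosome 3, 136336233 to 136752403) and STAG2 (ENSG00000101972, chromosome X, 123960212 to 124422664) are alternative subunits that bind RAD21 and DNA. NIPBL (ENSG00000164190, chromosome 5, 36876759 to 37066413) loads the ring and drives extrusion, WAPL (ENSG00000062650, chromosome 10, 86435256 to 86521815) opens it and releases it from chromatin, and PDS5A (ENSG00000121892, chromosome 4, 39822863 to 39977956) binds the ring and takes part in its release and its acetylation. CTCF (ENSG00000102974, chromosome 16, 67562407 to 67639185) is the zinc finger protein that stops the ring, and YY1 (ENSG00000100811, chromosome 14, 100238298 to 100282792) is a zinc finger factor of enhancers and promoters. All positions are on GRCh38, and all 10 are protein-coding.

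Levels differed widely between the members and between the tables. Genes were ranked within each group by reads per kilobase of exon, scaled like CPM (RPKM), the only scale on which levels of different genes are set side by side here. RAD21 ranked first in 13 of 15 groups, at 21.7 ± 0.575 RPKM in normoxia (mean ± SD, n = 3 as in all values below). YY1 ranked first in the other 2 groups, shCtrl hypoxia and shZHX2 hypoxia, at 12.5 ± 0.407 RPKM in shCtrl hypoxia against 6.55 ± 0.185 RPKM for RAD21, and the 2 genes did not overlap there. YY1 ranked second in normoxia and in every rescue and sgRNA group. NIPBL ranked last in every rescue and sgRNA group and in both hypoxic groups of the shRNA table. In the hexanediol table YY1 ranked 8 in the control and at 0.5% and 10 at 1%. Some neighbours in the order overlapped: in normoxia STAG2, NIPBL and STAG1 took the last 3 places at 2.41 ± 0.310 RPKM, 2.40 ± 0.123 RPKM and 2.25 ± 0.142 RPKM, and their libraries overlapped.

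The level of one gene also differed between tables in groups whose labels are nearly alike. SMC3 stood at 1.85 ± 0.0771 CPM in shCtrl hypoxia of the shRNA table, 14.5 ± 1.36 CPM in shCtrl cells of the rescue table, 54.8 ± 0.122 CPM in sgCtrl and 336 ± 5.74 CPM in the hexanediol control, all of them hypoxic T47D controls. YY1 ranged less, from 109 ± 3.55 CPM in shCtrl hypoxia to 249.7 ± 6.62 CPM in sgCtrl. The tables were not normalised together and differ in ways the labels do not give, so these differences were not tested and every comparison below stays within a table.

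**Figure D1:**
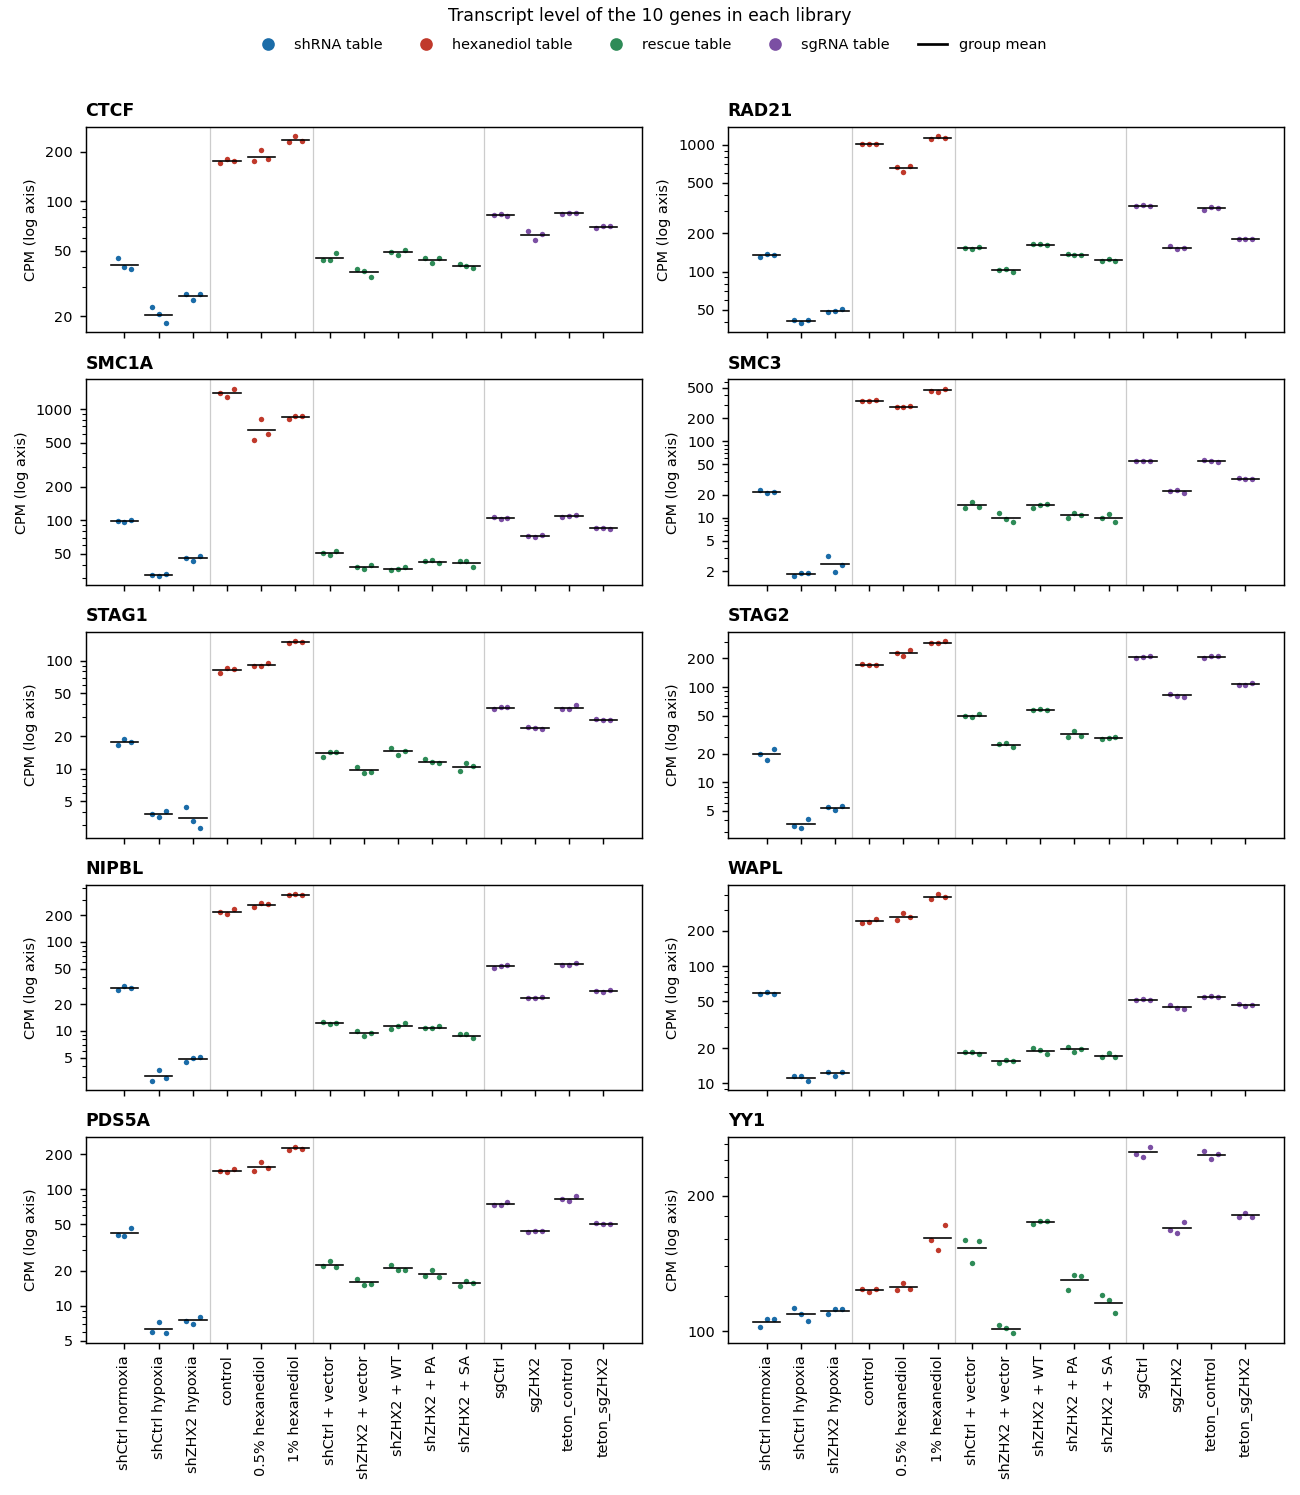
Level of each gene in CPM (log axis) in the 45 libraries, coloured by table, with points for libraries and bars for group means. Among the shRNA libraries 9 genes sit lower in hypoxia than in normoxia while YY1 lies between 102 and 113 CPM in both, and in the rescue and sgRNA tables the shZHX2 vector and sgZHX2 groups sit below their controls for all 10 genes.

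The first comparison asked what hypoxia did in shCtrl cells. Of the 10 members 9 were lower in hypoxia and 0 were higher, by 2.02-fold for CTCF to 11.9-fold for SMC3, and YY1 was not called. Across all genes tested 36.8% were called lower, 43.1% higher and 79.9% were called in either direction, at an adjusted p under 0.05 in edgeR's quasi-likelihood test with Benjamini-Hochberg adjustment over all genes of the table, as in all calls below. The median log2 fold change of the members was -2.30, against 0.12 over all genes tested. In bulk RNA, fewer cells that express a gene and less RNA per cell cannot be told apart.

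Of the ring genes, SMC3 stood at 22.8, 21.4 and 21.9 CPM in the 3 normoxic libraries and at 1.76, 1.90 and 1.89 CPM in the 3 hypoxic ones. The groups lay far apart, and the hypoxic libraries held only 27, 30 and 31 reads of SMC3, so its level there is known less well (log2 fold change -3.57, SE 0.14, adjusted p = 1.21e-31). SMC1A stood at 99.3, 95.7 and 99.997 CPM in normoxia and at 32.2, 31.8 and 32.7 CPM in the hypoxic libraries (log2 fold change -1.61, SE 0.05, adjusted p = 6.21e-36). Both arms of the ring fell, and the fold change was larger for SMC3. RAD21 fell from 130.3, 137 and 135 CPM to 41.2, 39.2 and 41.2 CPM, with no overlap (log2 fold change -1.73, SE 0.05, adjusted p = 5.61e-40). The STAG subunits both fell, STAG1 from 17.7 ± 1.11 CPM to 3.82 ± 0.237 CPM (log2 fold change -2.21, SE 0.13, adjusted p = 1.68e-23) and STAG2 from 19.8 ± 2.54 CPM to 3.63 ± 0.449 CPM (log2 fold change -2.44, SE 0.13, adjusted p = 6.35e-26).

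Among the regulators, the loader gene NIPBL fell from 28.6, 31.7 and 30.1 CPM to 2.74, 3.61 and 2.92 CPM (log2 fold change -3.28, SE 0.11, adjusted p = 2.57e-34). It was the second steepest fall of the 10, again with no overlap. The release factor WAPL fell from 58.8 ± 1.44 CPM to 11.2 ± 0.577 CPM (log2 fold change -2.40, SE 0.07, adjusted p = 5.8e-38) and PDS5A from 42.1 ± 3.84 CPM to 6.33 ± 0.825 CPM (log2 fold change -2.73, SE 0.09, adjusted p = 9.52e-35). Of the 2 zinc finger factors, CTCF stood at 44.996, 39.9 and 38.9 CPM in normoxia and 22.7, 20.6 and 18.2 CPM in hypoxia, a fall in which the groups did not overlap (log2 fold change -1.01, SE 0.07, adjusted p = 5.74e-19). YY1 stood at 102, 106 and 107 CPM in normoxia and 113, 109 and 106 CPM in hypoxia. Its groups overlapped and it was not called (log2 fold change 0.06, SE 0.04, adjusted p = 0.186).

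Fold changes of all genes in this comparison followed the GC content of their transcripts (Spearman rho 0.71 over 14816 genes that share these libraries), and the members are poor in GC, with a median of 41.1% against 50.4% over the tested genes, and long, with a median exon length of 8454 bases against 4591. Over all 1672 tested genes with 39% to 42% GC the median log2 fold change was -1.43. The fit was therefore repeated with an offset for each library that removes a smooth trend on GC content and exon length. With that offset the same 9 members were lower, with a median of -0.88 and values from -0.27 for CTCF to -2.22 for SMC3, beside 36.8% of all genes lower, 32.9% higher and 69.8% called. YY1 was then higher (0.56, adjusted p = 4.39e-20). With scaling by library size only, which moved the median of all genes by -0.48, all 10 were lower, beside 54.1% of all genes lower, 22.7% higher and 76.8% called, and YY1 stood at -0.43, so the direction of YY1 depends on the scaling. Mitochondrial genes took 4.55% to 4.76% of counts in normoxic and 9.12% to 9.57% in hypoxic libraries. The luminal markers summed to 22580.5 to 24329.6 CPM in normoxia and 58545 to 59226 CPM in hypoxia, and the fibroblast markers to 33.3 to 36.7 and 46.96 to 51.8 CPM. The part of these measures in the differences was not tested.

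**Figure D2:**
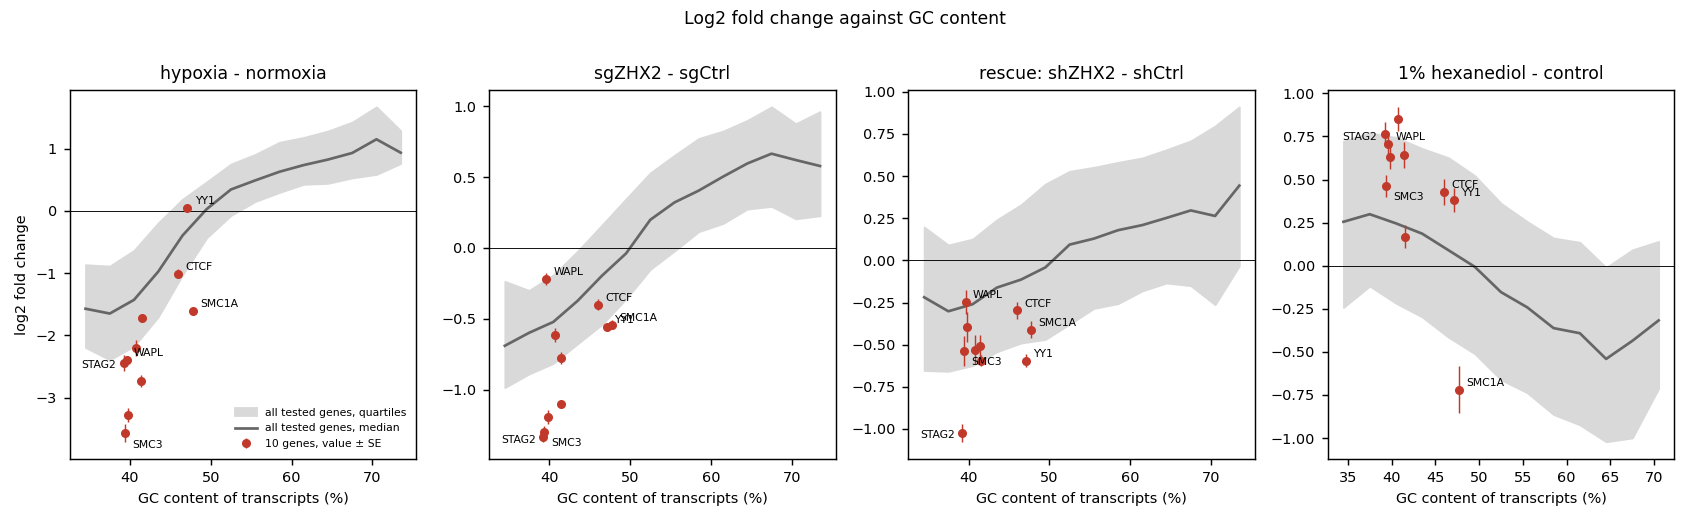
Log2 fold change against GC content (%) of the transcripts in 4 comparisons. The grey line and band are the median and quartiles of all tested genes in bins of 3 percentage points, and red points are the 10 genes with the SE of each fold change. In hypoxia the grey median rises with GC content and 7 of the 10 points lie below the lower quartile of their bin, whereas WAPL lies above the grey median in the sgZHX2 comparison.

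The second comparison asked what the ZHX2 hairpin did in hypoxia. It shares the shCtrl hypoxia libraries with the first. Of the members 5 were higher with shZHX2 and 0 lower, beside 33.6% of all genes higher, 33.2% lower and 66.8% called in either direction. The 5 were CTCF, RAD21, SMC1A, STAG2 and NIPBL. The median of the members was 0.33, against 0.02 over all genes. SMC1A stood at 32.2, 31.8 and 32.7 CPM with shCtrl and 45.7, 43.1 and 48.1 CPM with shZHX2 (log2 fold change 0.50, SE 0.06, adjusted p = 6.28e-12). NIPBL stood at 2.74, 3.61 and 2.92 CPM and 4.45, 4.95 and 5.08 CPM (log2 fold change 0.64, SE 0.15, adjusted p = 0.000173). Neither gene overlapped between the groups, and both stayed far below their normoxic levels of 98.3 ± 2.28 CPM and 30.1 ± 1.54 CPM. RAD21 rose from 40.5 ± 1.14 CPM to 49.1 ± 1.11 CPM (log2 fold change 0.28, SE 0.05, adjusted p = 2.45e-06), CTCF from 20.5 ± 2.27 CPM to 26.6 ± 1.38 CPM (log2 fold change 0.38, SE 0.08, adjusted p = 1.79e-05) and STAG2 from 3.63 ± 0.449 CPM to 5.41 ± 0.267 CPM (log2 fold change 0.57, SE 0.15, adjusted p = 0.000869).

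The other 5 members were not called. SMC3 stood at 1.76, 1.90 and 1.89 CPM with shCtrl and 3.18, 1.96 and 2.43 CPM with shZHX2. These groups did not overlap, but the shZHX2 libraries spread widely and the test just missed the threshold (log2 fold change 0.44, SE 0.20, adjusted p = 0.0501). It was passed without shZHX2 replicate 2 (0.60, adjusted p = 0.0124) and with the replicate number as a block (adjusted p = 0.0492) and with RLE scaling, another estimate of library size (0.48, adjusted p = 0.0317). PDS5A (log2 fold change 0.24, SE 0.12, adjusted p = 0.0655) passed without shCtrl hypoxia replicate 2 (0.35, adjusted p = 0.0199) and without shZHX2 replicate 2 (0.30, adjusted p = 0.0439), and with RLE scaling (0.28, adjusted p = 0.0313). STAG1 (log2 fold change -0.14, SE 0.17, adjusted p = 0.481), WAPL (log2 fold change 0.13, SE 0.09, adjusted p = 0.179) and YY1 (log2 fold change 0.02, SE 0.04, adjusted p = 0.603) stayed short of it.
Under the GC and length offset 4 members were higher and 1, YY1, lower (-0.09, adjusted p = 0.0287), beside 33.3% and 32.5% of all genes (65.9% called), and STAG2 lost its call (0.30, adjusted p = 0.076). Scaling by library size only shifted the median of all genes by 0.23, and 9 members were then higher, beside 47.5% of all genes higher, 22.8% lower and 70.3% called, so the number of members called here depends on the scaling. The mitochondrial share was 11.9% to 12.4% with shZHX2, where the luminal sum was 27352 to 27626 CPM and the fibroblast sum 69.4 to 72.3 CPM, and their part was not tested.

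The hexanediol table asked what happened to these transcripts in hypoxic cells given hexanediol. Condensates were not measured, so an effect of their loss was not tested. Both doses share the 3 control libraries. At 0.5% the members split, with 2 higher and 3 lower, beside 19.4% of all genes higher, 19.6% lower and 39.0% called. At 1% 9 were higher and 1 lower, beside 62.5% called in either direction, with 30.2% higher and 32.3% lower. From 0.5% to 1% all 10 were higher, beside 56.0% called in either direction, with 28.3% higher and 27.7% lower. The members' medians were 0.10 at 0.5%, 0.55 at 1% and 0.45 between the doses, against 0.00, -0.04 and -0.02 over all genes. Without replicate 2 of 0.5%, which stood apart, the same 5 members were called at 0.5%, beside 42.4% of all genes, and without replicate 2 of 1% the members called at 1% were 9, beside 58.2%.

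The 3 members that fell at 0.5% were the genes of the ring. SMC1A stood at 1386, 1296 and 1527 CPM in the control, 532, 825 and 599 CPM at 0.5% and 821, 866 and 871 CPM at 1%. Its level at 0.5% varied most, with replicate 2 well above the other 2 libraries, yet every treated library lay below every control library. The fall was called at 0.5% (log2 fold change -1.11, SE 0.14, adjusted p = 7.3e-05) and also at the 1% dose (log2 fold change -0.72, SE 0.13, adjusted p = 0.000623), and without the high library the value at 0.5% was -1.31. The difference between the doses was called (log2 fold change 0.39, SE 0.13, adjusted p = 0.0286) although the groups overlapped. It rested on single libraries and on the groups fitted: with only the 2 groups compared it was 0.36, adjusted p = 0.0567, without replicate 1 or 3 of 0.5% it was 0.24, adjusted p = 0.11 and 0.31, adjusted p = 0.116, without replicate 2 or 3 of 1% it was 0.37, adjusted p = 0.0865 and 0.37, adjusted p = 0.0717, and without replicate 2 of 0.5% it was 0.59, adjusted p = 1.32e-06.

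RAD21 stood at 1007, 1012 and 1018 CPM in the control, 667, 608 and 687 CPM at 0.5% and 1103, 1170.0 and 1136 CPM at 1%. The 0.5% libraries were the lowest and did not overlap either other group (log2 fold change -0.63, SE 0.07, adjusted p = 5.09e-06 for 0.5%). The level at 1% exceeded that at 0.5% (log2 fold change 0.80, SE 0.07, adjusted p = 1.64e-07). Against the control the rise at 1% was small (log2 fold change 0.17, SE 0.07, adjusted p = 0.0408), and its call was lost without any 1 of 5 libraries: control replicates 1, 2 and 3 (0.16, adjusted p = 0.119, 0.16, adjusted p = 0.1 and 0.17, adjusted p = 0.0877) and 1% replicates 2 and 3 (0.14, adjusted p = 0.1 and 0.17, adjusted p = 0.0911). With the GC and length offset it was -0.11 (adjusted p = 0.158). SMC3 showed the same order, at 332, 334 and 343 CPM in the control, 278, 285 and 291 CPM at 0.5% and 460.1, 444 and 486 CPM at 1%. It fell at 0.5% (log2 fold change -0.24, SE 0.06, adjusted p = 0.00832) and rose at 1% (log2 fold change 0.46, SE 0.06, adjusted p = 1.7e-05), and the 3 groups did not overlap. The fall at 0.5% lost its call with library size only (-0.12, adjusted p = 0.158) and with no low-count filter (-0.20, adjusted p = 0.0783).

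The STAG subunits, the regulators and both zinc finger factors were higher at 1% than in the control. STAG2 stood at 177, 170.0 and 171 CPM, 227, 212 and 243 CPM and 288, 288 and 302 CPM in the control, 0.5% and 1% groups, rising at 0.5% (log2 fold change 0.40, SE 0.07, adjusted p = 0.00038) and further at 1% (log2 fold change 0.76, SE 0.07, adjusted p = 2.12e-07). STAG1 was not called at 0.5% (log2 fold change 0.16, SE 0.07, adjusted p = 0.0919) and had the largest rise of the 10 at 1%, from 82.8 ± 5.11 CPM to 149 ± 2.13 CPM (log2 fold change 0.85, SE 0.07, adjusted p = 6.92e-08). NIPBL was higher at 0.5% (log2 fold change 0.25, SE 0.07, adjusted p = 0.00937), as it was at 1% (log2 fold change 0.63, SE 0.07, adjusted p = 1.67e-06). WAPL and PDS5A were called at 1% (0.71 and 0.64, adjusted p = 6.26e-07 and 3.26e-06 in edgeR's test) and not at 0.5% (adjusted p = 0.147 and 0.235). CTCF stood at 171, 182 and 176 CPM, 176, 205 and 181 CPM and 228, 249 and 234 CPM, with overlap at 0.5% and none at 1% (log2 fold change 0.43, SE 0.07, adjusted p = 0.000143). YY1 stood at 123 ± 1.23 CPM, 125 ± 2.60 CPM and 161 ± 10.5 CPM (log2 fold change 0.38, SE 0.07, adjusted p = 0.000186 at 1%).
Under the GC and length offset the calls were 2 higher and 3 lower at 0.5%, 8 higher and 1 lower at 1%, and 7 higher and 0 lower between the doses, beside 38.2%, 59.6% and 52.5% of all genes called in either direction. Of all genes 20.7%, 29.2% and 25.4% were then higher and 17.5%, 30.4% and 27.1% lower. STAG2, NIPBL and SMC1A were then not called between the doses (0.05, 0.09 and 0.32). Scaling by library size only moved the median of all genes by 0.12 at 0.5% and 0.18 at 1%, and 6 members were higher and 2 lower at 0.5%, beside 27.1% of all genes higher, 14.0% lower and 41.1% called. The mitochondrial share was 5.54% to 5.73% in the control, 4.88% to 6.54% at 0.5% and 4.37% to 4.56% at 1%. The luminal markers summed to 25084 to 27903 CPM in the control, 10854 to 15452 CPM at 0.5% and 3605 to 3850.0 CPM at 1%. Among them ESR1, the oestrogen receptor, stood at 151 ± 7.28 CPM, 143 ± 27.9 CPM and 32.9 ± 0.991 CPM, and the keratin KRT8 at 15923 ± 994 CPM, 7333 ± 1538 CPM and 1801 ± 74.99 CPM. The fibroblast sum was 29.3 to 34.6, 39.8 to 42.4 and 36.6 to 39.2 CPM. The part of these measures in the members' changes was not tested.

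**Figure D3:**
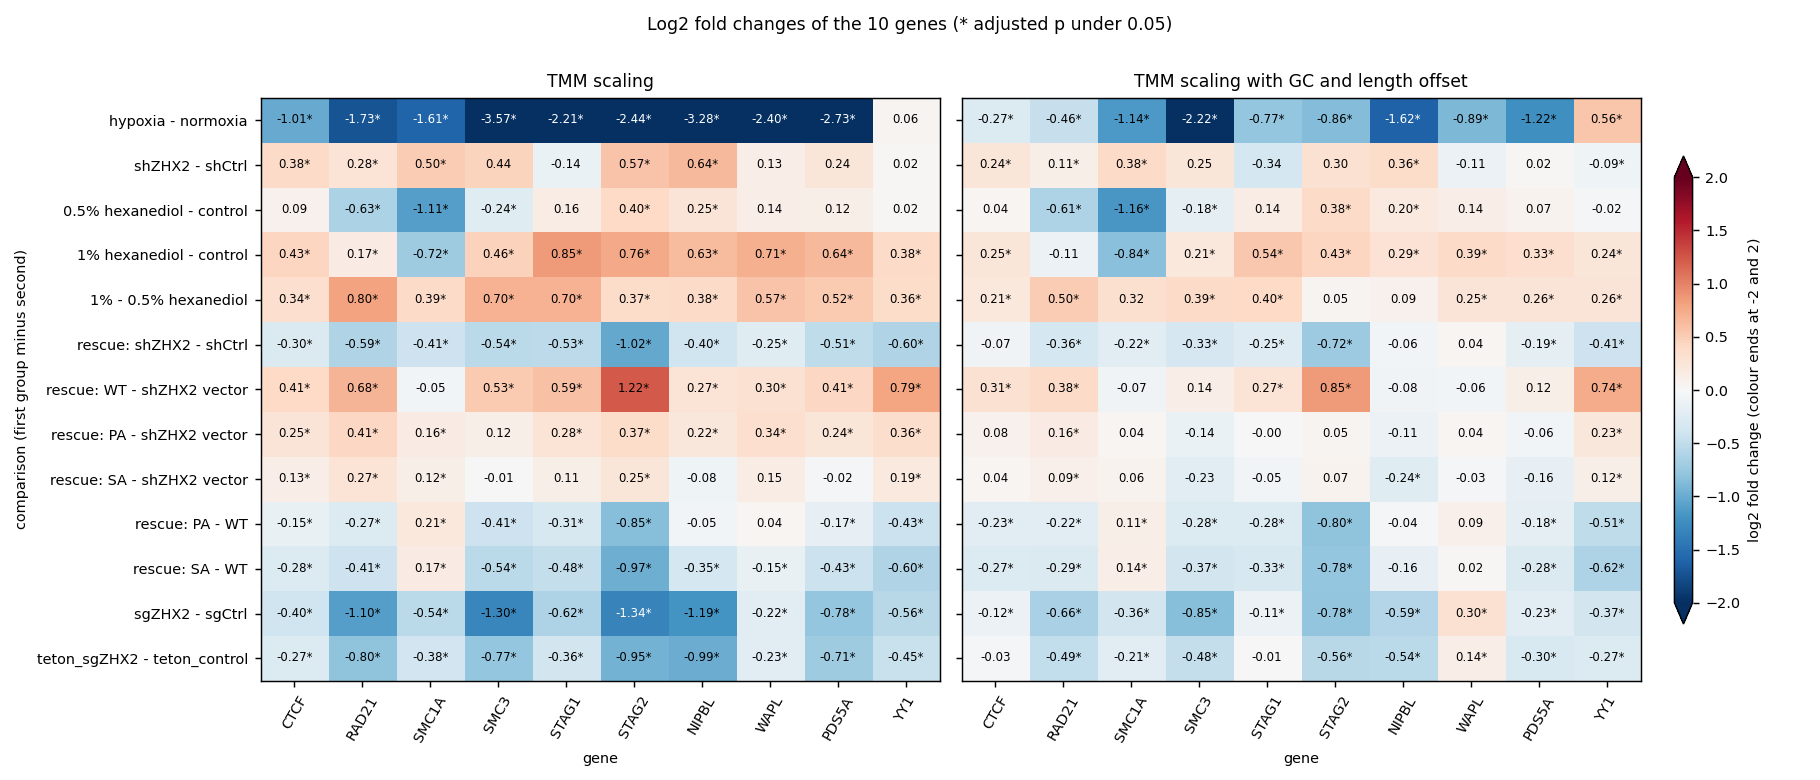
Log2 fold changes of the 10 genes (columns) in the 13 comparisons of 2 groups (rows), with TMM scaling on the left and with the added GC and length offset on the right. Blue is lower and red higher in the group named first, colours end at -2 and 2, and an asterisk marks an adjusted p under 0.05. The rows for shZHX2 in the rescue table and for sgZHX2 are blue throughout on the left, and on the right WAPL is positive in them.

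The rescue table asked whether ZHX2 forms returned what the hairpin had changed. The hairpin with vector lowered all 10 members, beside 35.3% of all genes lower, 33.9% higher and 69.2% called in either direction, and the groups did not overlap for any of the 10, as for 70.8% of all genes. The members' median was -0.52, against -0.01 over all genes. This differs from the shRNA table, where the hairpin raised 5 members and lowered 0. The 2 tables were fitted separately and this difference was not tested.

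STAG2 had the largest changes of the 10 with the hairpin and with WT. It stood at 50.1, 48.6 and 51.6 CPM in shCtrl cells, 25.04, 25.8 and 23.2 CPM in shZHX2 cells with vector and 57.1, 58.3 and 56.9 CPM with WT. PA and SA gave 29.97, 34.6 and 30.8 CPM and 28.6, 29.3 and 29.9 CPM. WT libraries lay above the shCtrl libraries, and PA and SA libraries lay between the vector and shCtrl libraries without touching either. The hairpin lowered it (log2 fold change -1.02, SE 0.05, adjusted p = 9.11e-30), WT raised it (log2 fold change 1.22, SE 0.05, adjusted p = 1.12e-34), and PA and SA raised it less (0.37 and 0.25). Tested directly, PA was lower than WT (log2 fold change -0.85, SE 0.05, adjusted p = 2.65e-26) and so was SA (log2 fold change -0.97, SE 0.05, adjusted p = 3.32e-29). With the GC and length offset STAG2 still fell with the hairpin (-0.72), rose with WT (0.85) and was lower with PA and SA than with WT (-0.80 and -0.78), while PA and SA against vector were not called (0.05 and 0.07).

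RAD21, whose estimated rises over vector exceeded those of STAG2 with PA and with SA, stood at 154, 152 and 157 CPM with shCtrl, 103, 104 and 98.9 CPM with the hairpin and 164, 166 and 161 CPM with WT. PA gave 138, 134 and 136 CPM and SA 122, 125 and 122 CPM, between the vector and shCtrl libraries, and none of these 5 groups overlapped. The hairpin lowered RAD21 (log2 fold change -0.59, SE 0.03, adjusted p = 6.23e-29), and WT (0.68), PA (0.41) and SA (0.27) raised it, also with the GC and length offset (0.38, 0.16 and 0.09).
YY1 stood at 159, 142 and 159 CPM with shCtrl, 103, 102 and 98.97 CPM with the hairpin, 173, 176 and 176 CPM with WT, 124, 134 and 133 CPM with PA and 120.2, 117 and 110.1 CPM with SA. The WT libraries were the highest of all and the PA libraries lay above the SA libraries. The rises over vector were called with WT (log2 fold change 0.79, SE 0.04, adjusted p = 4.13e-24), PA (0.36) and SA (0.19), and YY1 was lower with PA and SA than with WT (-0.43 and -0.60), all of them also with the offset.

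SMC1A, the other arm of the ring beside SMC3, stood at 50.4, 48.8 and 52.6 CPM with shCtrl, 38.1, 36.5 and 39.7 CPM with the hairpin and 35.8, 36.9 and 37.8 CPM with WT. PA gave 42.95, 43.7 and 41.2 CPM and SA 43.2, 42.9 and 38.3 CPM. The hairpin lowered it (log2 fold change -0.41, SE 0.05, adjusted p = 6.18e-12), with WT it was not called against vector and overlapped it (log2 fold change -0.05, SE 0.05, adjusted p = 0.392), and it was the member that was higher with PA and with SA than with WT (log2 fold change 0.21, SE 0.05, adjusted p = 0.000136 and log2 fold change 0.17, SE 0.05, adjusted p = 0.00237). The rise with PA over vector (log2 fold change 0.16, SE 0.05, adjusted p = 0.00357) was lost with the GC and length offset (0.04). That with SA (log2 fold change 0.12, SE 0.05, adjusted p = 0.04) was lost with DESeq2 (adjusted p = 0.117), with the offset (0.06) and without any 1 of 4 libraries, namely vector replicates 1 and 2 (0.12, adjusted p = 0.071 and 0.09, adjusted p = 0.21) and SA replicates 1 and 2 (0.09, adjusted p = 0.212 and 0.10, adjusted p = 0.155).

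With WT 9 members were higher than with vector and 0 lower, beside 35.1% of all genes higher, 34.6% lower and 69.7% called. SMC3 rose from 10.1 ± 1.40 CPM to 14.5 ± 0.895 CPM, close to the shCtrl level of 14.5 ± 1.36 CPM (log2 fold change 0.53, SE 0.09, adjusted p = 4.15e-07), and CTCF rose from 37.2 ± 2.04 CPM to 49.1 ± 1.68 CPM (log2 fold change 0.41, SE 0.05, adjusted p = 1.29e-11). With the GC and length offset CTCF stayed higher with WT (0.31), while SMC3 lost its call (0.14, adjusted p = 0.165). PDS5A (0.12, adjusted p = 0.115), NIPBL and WAPL lost theirs too. With PA 9 members were higher and 0 lower, SMC3 being the 1 without a call (log2 fold change 0.12, SE 0.09, adjusted p = 0.301), beside 24.7% of all genes higher, 22.9% lower and 47.6% called. With SA 5 were higher and 0 lower, beside 20.2% higher, 21.5% lower and 41.7% called: CTCF, RAD21, SMC1A, STAG2 and YY1. CTCF with SA (log2 fold change 0.13, SE 0.05, adjusted p = 0.0309) lost its call without vector replicate 3 (0.08, adjusted p = 0.266) and without SA replicate 1 (0.11, adjusted p = 0.121), and with DESeq2 (0.12, adjusted p = 0.101). Without SA replicate 1, 3 members were called, beside 38.5% of all genes. The WT, PA and SA comparisons share the vector libraries.
The loader gene NIPBL was higher with WT (log2 fold change 0.27, SE 0.09, adjusted p = 0.00618), but not without WT replicate 3 (0.22, adjusted p = 0.0527). With PA its call (log2 fold change 0.22, SE 0.09, adjusted p = 0.0316) was lost without any 1 of 5 libraries, with adjusted p from 0.0509 to 0.156 and log2 fold changes of 0.17 without vector replicate 2, 0.22 without vector replicate 3, 0.23 without PA replicate 1, 0.22 without PA replicate 2 and 0.19 without PA replicate 3. It was also lost with DESeq2 (0.21, adjusted p = 0.141) and with no low-count filter (0.20, adjusted p = 0.126). PDS5A with PA (log2 fold change 0.24, SE 0.07, adjusted p = 0.00259) lost its call without PA replicate 2 (0.17, adjusted p = 0.0636).

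Against WT, PA was lower in 7 members and higher in 1, beside 33.7% and 33.2% of all genes (66.9% called), and SA was lower in 9 and higher in 1, beside 32.0% and 32.1% (64.1% called). The member higher in both was SMC1A. STAG1 was lower with PA (log2 fold change -0.31, SE 0.08, adjusted p = 0.000615) and SA (log2 fold change -0.48, SE 0.08, adjusted p = 7.38e-07), and SMC3 likewise (-0.41 and -0.54). NIPBL and WAPL did not pass with PA (-0.05 and 0.04). PDS5A with PA (log2 fold change -0.17, SE 0.07, adjusted p = 0.0253) lost its call without WT replicate 1 (-0.12, adjusted p = 0.181), PA replicate 1 (-0.15, adjusted p = 0.0714) or PA replicate 3 (-0.16, adjusted p = 0.0649) and with DESeq2 (-0.17, adjusted p = 0.101). WAPL with SA (log2 fold change -0.15, SE 0.07, adjusted p = 0.0469) lost it without WT replicate 1 (-0.11, adjusted p = 0.209), WT replicate 2 (-0.14, adjusted p = 0.113), SA replicate 1 (-0.13, adjusted p = 0.141) or SA replicate 3 (-0.14, adjusted p = 0.121), and with the replicate block (adjusted p = 0.0525), DESeq2 (-0.14, adjusted p = 0.189), RLE scaling, no low-count filter or only the groups compared (adjusted p = 0.0577, 0.179 and 0.058).
With the GC and length offset the members lower with the hairpin were 7 (CTCF at -0.07 and NIPBL at -0.06 lost their calls and WAPL was at 0.04), those higher with WT 5, with PA 2 (RAD21 and YY1) and with SA 2 (again RAD21 and YY1), with NIPBL lower with SA (-0.24). All genes called in either direction were then 66.7%, 65.7%, 33.7% and 25.8%, with 33.5%, 33.8%, 16.0% and 13.4% higher and 33.2%, 31.9%, 17.7% and 12.4% lower. The counts of PA and SA against WT were 7 lower and 1 higher in each, beside 35.0% and 32.7% of all genes lower, 31.1% and 30.0% higher and 66.0% and 62.7% called. Scaling by library size only moved the median of PA against WT by 0.25, and the calls became 2 lower and 3 higher, beside 20.4% of all genes lower, 49.0% higher and 69.4% called. The mitochondrial share was 0.749% to 0.778% with shCtrl, 0.785% to 0.807% with the hairpin, 0.312% to 0.333% with WT, 1.16% to 1.26% with PA and 1.12% to 1.19% with SA. The luminal sum was 46387 to 47894 CPM with shCtrl, 30978 to 32277 CPM with the hairpin, 44221 to 44891 CPM with WT, 29220.4 to 29436 CPM with PA and 32478 to 32924 CPM with SA, and the fibroblast sum was 17.2 to 21.2, 27.6 to 30.2, 12.98 to 15.4, 18.02 to 20.02 and 14.6 to 16.8 CPM in the same order. The part of these measures was not tested.

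The sgRNA table asked what guides against ZHX2 did in hypoxia, in 2 formats with separate controls. All 10 members were lower with sgZHX2, beside 36.1% of all genes lower, 37.0% higher and 73.1% called, and all 10 were lower with teton_sgZHX2, beside 34.7% lower, 34.4% higher and 69.1% called. The groups did not overlap for any of the 10 in either format, as for 75.0% and 71.4% of all genes. The members' medians were -0.70 and -0.58, against 0.01 and 0.00 over all genes.

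STAG2 and SMC3 had the largest falls with sgZHX2, and with the GC and length offset the estimate was -0.85 for SMC3 and -0.78 for STAG2. STAG2 stood at 203, 207 and 211 CPM in sgCtrl and 85.1, 81.5 and 79.7 CPM in sgZHX2, and at 200.0, 210.2 and 212 CPM in teton_control and 106, 104 and 111 CPM in teton_sgZHX2. The 2 control groups overlapped and the fall was larger in the sgZHX2 libraries (log2 fold change -1.34, SE 0.03, adjusted p = 1.2e-34) than with teton_sgZHX2 (log2 fold change -0.95, SE 0.03, adjusted p = 2.15e-29). SMC3 fell from 54.7, 54.9 and 54.9 CPM to 22.6, 22.8 and 21.4 CPM in the sgZHX2 libraries (log2 fold change -1.30, SE 0.04, adjusted p = 1.3e-28) and from 55.4 ± 1.28 CPM to 32.6 ± 0.514 CPM in the teton format (-0.77). NIPBL fell from 51.4, 53.99 and 55.5 CPM to 23.3, 23.3 and 23.8 CPM (log2 fold change -1.19, SE 0.05, adjusted p = 1.12e-26) and, in the teton format, by less (-0.99). RAD21 fell from 331 ± 2.90 CPM to 155 ± 4.07 CPM (log2 fold change -1.10, SE 0.03, adjusted p = 3.69e-34) and from 316 ± 6.83 CPM to 181 ± 1.44 CPM (-0.80).

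The falls of the other 6 were smaller. PDS5A fell by 0.78 and 0.71 on the log2 scale with sgZHX2 and teton_sgZHX2, STAG1 fell by 0.62 and 0.36, and the log2 fold changes were -0.56 and -0.45 for YY1, -0.54 and -0.38 for SMC1A and -0.40 and -0.27 for CTCF. WAPL, which releases cohesin, changed least, from 51.9, 52.7 and 50.9 CPM to 46.2, 44.2 and 43.1 CPM in sgZHX2 libraries (log2 fold change -0.22, SE 0.04, adjusted p = 4.66e-06) and from 54.5 ± 0.922 CPM to 46.5 ± 0.966 CPM in the teton format (log2 fold change -0.23, SE 0.04, adjusted p = 1.24e-06). Fitted with the GC and length offset, WAPL was higher in both (0.30 and 0.14, adjusted p = 2.42e-09 and 0.00118 in edgeR's test), so its direction depends on that correction. The other 9 stayed lower with sgZHX2, from -0.11 for STAG1 to -0.85 for SMC3, beside 34.7% of all genes lower and 31.3% higher (66.0% called), and 7 stayed lower with teton_sgZHX2, beside 31.7% lower and 31.7% higher (63.4% called), where CTCF and STAG1 were at -0.03 and -0.01 and not called. Fold changes of all genes followed GC content (Spearman rho 0.58 and 0.48 over 15667 genes). The mitochondrial share was 2.51% to 2.71% in sgCtrl and 1.67% to 1.71% in sgZHX2, and 2.83% to 2.95% in teton_control and 1.69% to 1.82% in teton_sgZHX2. In the order sgCtrl, sgZHX2, teton_control and teton_sgZHX2, the fibroblast sum was 26.5 to 29.5, 53.5 to 55.1, 28.4 to 31.1 and 48.3 to 48.6 CPM, the basal sum 1.41 to 2.21, 3.81 to 4.92, 1.53 to 2.27 and 2.90 to 3.88 CPM and the luminal sum 38374 to 39080.1, 39408 to 40296, 36129 to 36512 and 35859 to 37153 CPM. The part of these measures was not tested.

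Whether the 2 formats differed was tested in the same fit, as the sgZHX2 effect minus the teton_sgZHX2 effect. The effect was more negative with sgZHX2 for 7 members and less negative for 0, beside 12.0% of all genes more negative, 8.33% less negative and 20.3% called. The 7 were RAD21, SMC1A, SMC3, STAG1, STAG2, NIPBL and YY1, with SMC3 the largest (log2 fold change -0.53, SE 0.06, adjusted p = 1.29e-08). PDS5A (log2 fold change -0.07, SE 0.06, adjusted p = 0.457), WAPL (log2 fold change 0.01, SE 0.06, adjusted p = 0.926) and CTCF (log2 fold change -0.13, SE 0.05, adjusted p = 0.0645) were not called. CTCF passed without sgCtrl replicate 3 (-0.15, adjusted p = 0.0454) or sgZHX2 replicate 1 (-0.18, adjusted p = 0.0114), and with RLE scaling (-0.14, adjusted p = 0.0439). NIPBL (log2 fold change -0.20, SE 0.06, adjusted p = 0.0195) lost its call without teton_sgZHX2 replicate 3 (-0.19, adjusted p = 0.0511). YY1 (log2 fold change -0.11, SE 0.04, adjusted p = 0.039) lost it without any 1 of sgCtrl replicate 3, sgZHX2 replicates 1 and 2, teton_control replicate 2 and teton_sgZHX2 replicates 2 and 3, with values of -0.10, -0.11, -0.11, -0.10, -0.10 and -0.12, and with no low-count filter (-0.11, adjusted p = 0.108). Fitted with the offset, 4 members were more negative (RAD21, SMC1A, SMC3 and STAG2) and WAPL less (0.16), beside 6.53% and 1.76% of all genes and 8.29% called.

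Ratios of 2 members within a library do not depend on how libraries are scaled, and were taken on lengths of exons. They describe transcripts and not the makeup of complexes. In groups of 3 libraries, 3 against 3 cannot give an exact permutation p below 0.1, so they are given without a test. SMC1A and SMC3, the 2 arms of the same ring, stood at a ratio of 1.77, 1.82 and 1.87 in normoxia and 7.48, 6.84 and 7.08 in shCtrl hypoxia. The ratio was higher with sgZHX2, at 1.32 ± 0.0722 against 0.783 ± 0.0129, and with teton_sgZHX2, at 1.06 ± 0.0221 against 0.813 ± 0.0371. It was lower with 1% hexanediol, at 0.752 ± 0.0391 against 1.70 ± 0.117, and lower with WT, at 1.04 ± 0.0384 against 1.56 ± 0.247 with vector, and these groups did not overlap. With the hairpin it overlapped the control in both tables, at 7.64 ± 1.59 against 7.13 ± 0.323 in the shRNA table and 1.56 ± 0.247 against 1.43 ± 0.168 in the rescue table. SMC1A has 47.7% GC and SMC3 39.4%, and the trend on GC content was not removed from the ratio.

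STAG2 and STAG1 compete for the same place on the ring and are nearly alike in GC content, at 39.2% and 40.7%. Their ratio was 5.42, 5.33 and 5.41 in sgCtrl and 3.34, 3.23 and 3.24 in sgZHX2, and 5.41 ± 0.207 and 3.61 ± 0.157 in the teton format. In the rescue table it was 3.46 ± 0.265 with shCtrl, 2.45 ± 0.203 with the hairpin, 3.81 ± 0.335 with WT, 2.61 ± 0.256 with PA and 2.70 ± 0.211 with SA. The hairpin with vector and both sgZHX2 groups stood below all their control libraries, and WT overlapped shCtrl. In the shRNA table the hairpin group stood higher, at 1.54 ± 0.361 against 0.908 ± 0.0564, with the widest spread of any group.
NIPBL and WAPL act at opposite ends of the cohesin cycle and have 39.8% and 39.6% GC. Their ratio was 0.285, 0.302 and 0.299 in normoxia and 0.137, 0.181 and 0.160 in hypoxia, and 0.571, 0.591 and 0.629 in sgCtrl and 0.291, 0.303 and 0.318 in sgZHX2. It was 0.593 ± 0.0271 in teton_control and 0.350 ± 0.00705 in teton_sgZHX2. In each of these 3 comparisons the treated libraries lay below all control libraries. With the hairpin in the shRNA table the ratio went the other way, to 0.206, 0.245 and 0.233, above all shCtrl hypoxia libraries. In the rescue table the shCtrl and hairpin groups overlapped, at 0.386 ± 0.0104 and 0.350 ± 0.0385.

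**Figure D4:**
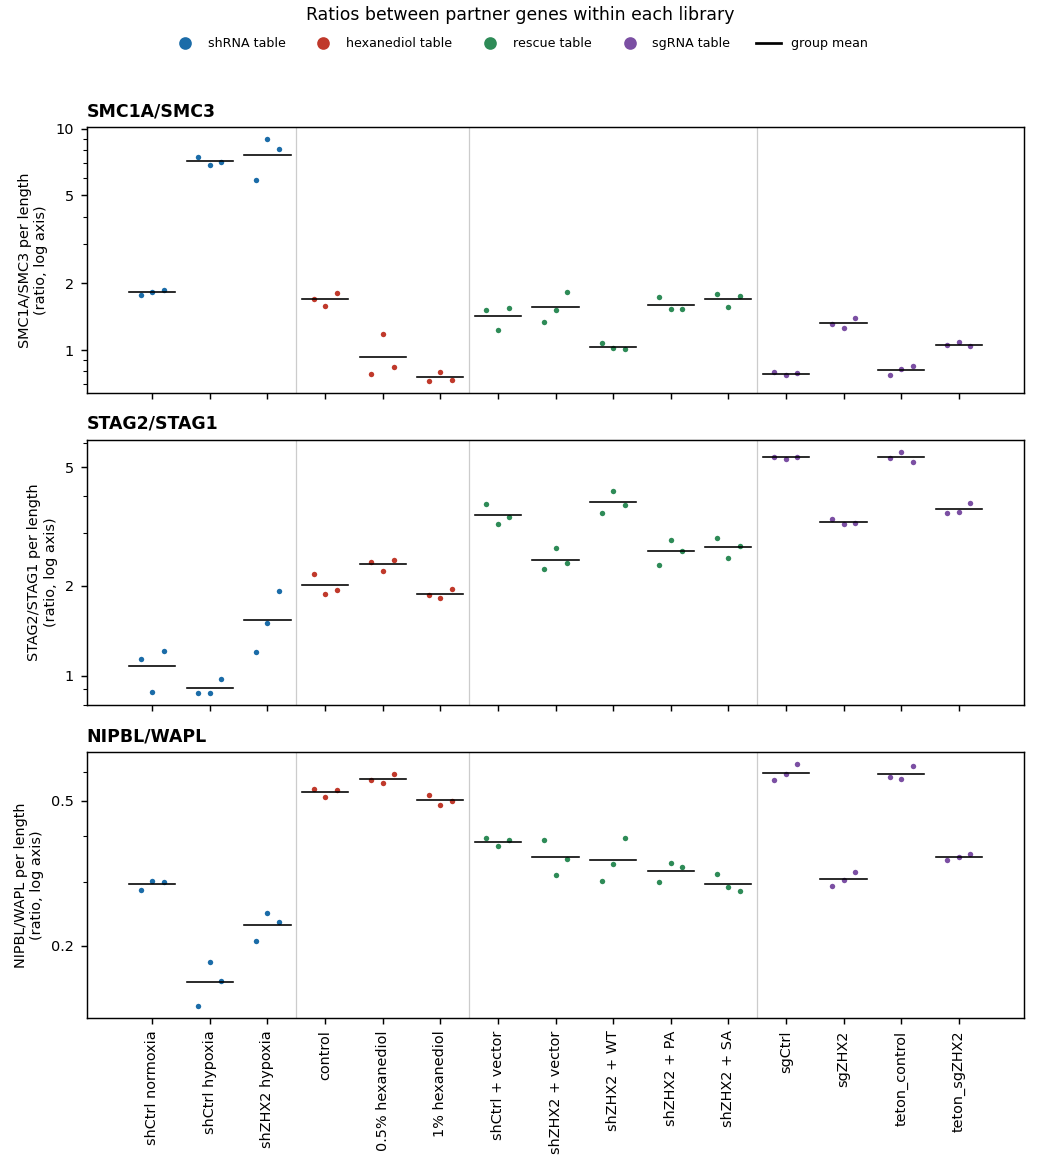
Ratio of RPKM of SMC1A to SMC3, STAG2 to STAG1 and NIPBL to WAPL within each of the 45 libraries (log axis), with points for libraries, bars for group means and colours for tables. SMC1A to SMC3 stands at 1.82 in normoxia and 7.13 in hypoxia, and STAG2 to STAG1 falls from 5.39 to 3.27 with sgZHX2.

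The wider set of loop and SMC genes was described from 39 further genes: 10 cohesin cofactors, 5 germline paralogues, 8 condensin genes, 6 genes of the SMC5/6 complex and 10 other architectural factors. Of these, 36 to 38 passed the filter in a table. In hypoxia 10 were higher and 21 lower of 36 (median -0.63), with the hairpin among the shRNA libraries 11 and 14 of 36 (0.05), at 0.5% hexanediol 3 and 18 of 38 (-0.31) and at 1% 11 and 16 of 38 (-0.12). Among the rescue libraries 4 were higher and 25 lower of 36 with the hairpin (-0.34) and 22 higher and 6 lower with WT against vector (0.31). With sgZHX2 7 were higher and 26 lower of 37 (-0.53), and with teton_sgZHX2 6 and 24 (-0.34). The shares of all genes called are those given above for each comparison.

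Condensin, which compacts chromosomes for mitosis with the related arms SMC2 and SMC4, is a relative of cohesin. Of its 8 genes 6 were lower and 1 higher in hypoxia. With the hairpin 5 were lower and 0 higher among the shRNA libraries, and 8 were lower among the rescue libraries. With WT against vector 5 were higher and 2 lower (median log2 fold change 0.21). Against WT, 6 were lower and 2 higher with PA, and 5 lower and 1 higher with SA. At 0.5% hexanediol 7 were lower and 0 higher, and at 1% the counts were 5 lower and 2 higher. Between the doses 7 were higher at 1% and 1 lower. The counts were 7 lower and 1 higher with sgZHX2 and with teton_sgZHX2. SMC2 stood at 23.01, 22.9 and 24.01 CPM in shCtrl, 9.29, 8.14 and 8.41 CPM with the hairpin and 23.8, 22.2 and 24.01 CPM with WT. It fell with the hairpin (log2 fold change -1.44, SE 0.08, adjusted p = 1.4e-28), rose with WT (log2 fold change 1.44, SE 0.08, adjusted p = 1.68e-28) and was lower with PA and SA than with WT (-1.28 and -1.45). With sgZHX2 it fell from 107 ± 1.63 CPM to 31.9 ± 2.02 CPM (log2 fold change -1.74, SE 0.04, adjusted p = 1.98e-35).
SMC2 and the genes named next were picked for their large changes among the wider genes and do not stand for their lists. Of the 10 cofactors 4 were higher and 5 lower in hypoxia. Among the cofactors, ESCO2, which acetylates SMC3 in S phase, stood at 35.6, 34.5 and 40.6 CPM in the hexanediol control and 3.61, 3.90 and 4.23 CPM at 0.5% (log2 fold change -3.23, SE 0.12, adjusted p = 1.78e-10). The fall of ESCO2 was smaller at 1%, to a mean of 11.4 CPM (log2 fold change -1.69, SE 0.10, adjusted p = 3.77e-09). In hypoxia it fell from 10.7 ± 0.719 CPM to 1.39 ± 0.0952 CPM (log2 fold change -2.95, SE 0.18, adjusted p = 1.55e-22; with the GC and length offset -1.39). Among the architectural factors, LDB1, which bridges enhancers and promoters, was higher in hypoxia, at 385 ± 5.37 CPM against 176 ± 6.26 CPM (log2 fold change 1.13, SE 0.03, adjusted p = 1.96e-40), and TOP2B, a topoisomerase found at loop anchors, was lower (log2 fold change -2.97, SE 0.08, adjusted p = 2.96e-38). Under the offset these values were 0.28 and -1.49. SATB1, a genome organiser, stood at 1.58 ± 0.351 CPM in sgCtrl and 0.118 ± 0.0680 CPM in sgZHX2, and at 6.96 ± 0.183 CPM in teton_control and 0.249 ± 0.0161 CPM in teton_sgZHX2, a difference between the 2 control groups that was not tested. The SATB1 levels in sgZHX2 and teton_sgZHX2 are near the floor and rest on few reads, so the size of its falls is poorly known.

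Across the 45 libraries, with each table centred on its mean, the log2 levels of member pairs had a median Pearson r of 0.87, from 0.14 for SMC1A and YY1 to 0.98 for NIPBL and PDS5A. The pairs share libraries, which come as 15 groups of 3, and no r of other gene pairs was set beside these values. The trend on GC content was not removed from the levels. The GC content of the 10 transcripts ranged from 39.2% for STAG2 to 47.1% for YY1 and 47.7% for SMC1A. YY1 stood apart with a median r of 0.33 to the others, and SMC1A with 0.68. Among 5941 genes with a mean log2 CPM of at least 3 in every table, the closest to SMC3 was VPS35 (r = 0.99), followed by PDS5A (0.98), the only member found among the 3 closest genes of any other member. The closest to NIPBL was HIF1A (0.99), to WAPL SLC38A1 (0.99), to STAG2 SMAD2 (0.97), to STAG1 MAN2A1 (0.97), to RAD21 TMOD3 (0.97), to CTCF PPP1R12A (0.94), to YY1 TPD52 (0.94) and to SMC1A MYH10 (0.91). These closest genes had from 38.9% GC (HIF1A) to 48.6% (MYH10), against a median of 50.4% over the tested genes of the shRNA table. The part of GC content in these correlations was not tested.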

How the data were processed

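The 4 tables hold raw read counts for each gene, as deposited by the authors. HISAT2 and featureCounts, with FastQC, DESeq2 and the genome build hg38, are named in the submitters' processing notes. Their versions, the annotation and the strand setting were not given in the sources, so reads of overlapping antisense genes cannot be told apart. Exon length and GC content came from GENCODE release 29 (GRCh38), and promoters from RefSeq (GRCh38.p14).

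Each table was fitted on its own with edgeR 4.0.16 in R 4.3.3 (filterByExpr, TMM, robust quasi-likelihood, all groups in 1 model), leaving 14903, 16840, 14302 and 15781 genes in the shRNA, hexanediol, rescue and sgRNA tables, with a common biological coefficient of variation of 4.15%, 10.2%, 3.16% and 2.81%. P-values were adjusted over all genes of a table by the Benjamini-Hochberg method, and calls were made at 0.05. SE is the log2 fold change over the square root of F. CPM used TMM-scaled library sizes. The offset was a natural spline (5 degrees of freedom each) on GC content and log2 exon length per library. Replicate pairs differed by more than counting noise (chi-square per degree of freedom 1.77 to 29.5 over 45 pairs, the highest for replicate 2 of 0.5% hexanediol), and all 45 libraries were kept separate. The fit was also run on simulated counts with a small set of changed genes, or with a GC trend added to unchanged genes. Most comparisons here call a far larger share of genes, so the simulation does not test the scaling in them.

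Replicate numbers were checked by correlating deviations from group means. Every correlation between same-numbered libraries exceeded 0.1 only for 1% against 0.5% hexanediol (0.341, 0.524 and 0.332). By this rule the numbers were taken to pair libraries there, but the evidence is mixed. The highest correlation between different numbers was 0.343, above the values for replicates 1 and 3. Only 4 of the 6 libraries were closest to the one sharing their number, and replicate 2 stood apart in both groups. The values given for this comparison come from the fit without the replicate block unless stated. Alternatives were RLE scaling, library size only, no low-count filter, the replicate block, the GC and length offset, DESeq2 1.42.0, only the groups compared, and leaving out each library. Named were the 10 members, ZHX2, at most the 2 largest rises and falls of the 39 wider genes in a comparison (called, mean log2 CPM of at least 1; not all are given) and the 3 genes most alike in log2 CPM (not all are reported here). The members and lists were chosen with earlier results of these data known.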

Additional observations from a re-analysis of the deposited data

Results flagged for a closer look

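For 7 of the 10 members the effect of sgZHX2 differed from that of teton_sgZHX2 in a test of the difference itself (edgeR's interaction contrast over the 12 libraries, adjusted over 15781 genes), beside 20.3% of all genes. The sgZHX2 effect minus the teton_sgZHX2 effect, on the log2 scale, was -0.53 for SMC3, -0.38 for STAG2, -0.29 for RAD21, -0.25 for STAG1, -0.20 for NIPBL, -0.16 for SMC1A and -0.11 for YY1. The adjusted p from edgeR was 1.29e-08, 1.18e-08, 1.09e-07, 0.0056, 0.0195, 0.00914 and 0.039 in the same order. With the GC and length offset, beside 8.29% of all genes, STAG1, NIPBL and YY1 were not called (adjusted p = 0.384, 0.716 and 0.133) and SMC3, STAG2, RAD21 and SMC1A were. Without the offset all 7 transcripts were lower in both formats, and the fall was the deeper with sgZHX2.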

How the results depend on the processing

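Each of the 140 member values and the 28 counts was refitted under the alternatives. With library size only, the members called became 9 for shZHX2 against shCtrl in the shRNA table, 8 at 0.5% hexanediol and 5 for PA against WT, where CTCF (0.092), NIPBL (0.197) and PDS5A (0.0773) turned positive, and YY1 in hypoxia turned to -0.43. With the GC and length offset, the members called became 5 for WT, 2 for PA and 3 for SA against vector, and the genes called became 3695 for SA against vector and 1308 for the difference of the sgZHX2 effects. Under this offset the sign turned for YY1 with shZHX2 in the shRNA table (-0.0928), RAD21 at 1% hexanediol (-0.11), WAPL with the hairpin in the rescue table (0.0354), NIPBL (-0.0759) and WAPL (-0.0554) with WT, STAG1 (-0.0045), NIPBL (-0.11) and PDS5A (-0.0562) with PA, WAPL for SA against WT (0.0236), and WAPL with sgZHX2 (0.30) and teton_sgZHX2 (0.14). DESeq2 called 3 members for SA against vector and 2128 genes for the difference of the sgZHX2 effects. A further 26 of 1880 values changed sign while called in neither fit. The cause of these changes was not tested.

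With the replicate number as a block, SMC3 with shZHX2 in the shRNA table passed (0.44, adjusted p = 0.0492) and WAPL for SA against WT did not (-0.15, adjusted p = 0.0525), and no other member call changed. For 1% against 0.5% hexanediol, where the numbers were taken to pair the libraries, all 10 members stayed called with the block. Only 4 of the 6 libraries there were closest to the one sharing their number, so the pairing is uncertain. In the teton comparison each of the 6 libraries correlated best with its own number (0.065, 0.169 and 0.218), short of the rule for pairing.

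Leaving out each library gave 9 members called in hypoxia throughout, 5 to 7 with shZHX2 in the shRNA table, 5 at 0.5% hexanediol, 9 to 10 at 1% and between the doses, 10 with the hairpin in the rescue table, with sgZHX2 and with teton_sgZHX2, 8 to 9 with WT, 7 to 9 with PA, 3 to 5 with SA, 7 to 8 for PA and 9 to 10 for SA against WT, and 5 to 7 for the difference of the sgZHX2 effects. Over all genes, those called in the same refits were 11587 to 11725 in hypoxia and 9492 to 9584 with shZHX2. They were 5137 to 7356 at 0.5% hexanediol, 9574 to 10086 at 1% and 8493 to 10170 between the doses. With the hairpin in the rescue table they were 9379 to 9589. Against vector they were 9434 to 9647 with WT, 6138 to 6481 with PA and 5264 to 5663 with SA. Against WT they were 9014 to 9271 for PA and 8596 to 8794 for SA. With sgZHX2 they were 11074 to 11236 and with teton_sgZHX2 10429 to 10628. For the difference of the sgZHX2 effects they were 2660 to 3443. The shares of all genes called in the full fits are given above for each comparison. The depth limits SMC3 and NIPBL most in hypoxia of the shRNA table, with 27 to 57 reads in a shCtrl library.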
